A study of Mus musculus with 8 samples.

Results

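The 36 genes described here encode chaperones of the endoplasmic reticulum (ER), regulators of the unfolded protein response (UPR), and the machinery of ER-associated degradation (ERAD). They were chosen by symbol and were all found among the 31053 genes listed for each library. There were 12 chaperones and chaperone partners, 7 disulphide isomerases and relatives, 10 degradation genes, 5 sensors and transcription factors, and 2 other genes (Wfs1 and Bet1). Their unique molecular identifiers (UMIs, each marking 1 captured mRNA molecule) were counted in single cells of mouse parietal bone, a flat bone of the skull. Pups were 4 to 5 days old, and both genotypes carried the strain label B6.129(FVB)-Col1a2tm1Mcbr/J. The 4 Het libraries were labelled Het G610C, carrying on 1 allele a glycine-to-cysteine substitution in the α2 chain of type I collagen, and the 4 WT libraries were labelled WT. This mouse line is used as a model of osteogenesis imperfecta, a brittle bone disorder. Cells of several pups of the same genotype were pooled into each library, and the replicate here was therefore the library (n = 4 per genotype). Kit version 3 was used for S1 to S4, of which S1 and S2 were WT, and kit version 3.1 for S5 to S8, of which S5 and S6 were WT. The later kit came with a later release of the counting software, so effects of kit and software cannot be told apart.

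Secreted proteins such as procollagen fold in the ER with the help of chaperones and enzymes that form disulphide bonds. Chains that fail to fold are pulled back through the ER membrane and degraded, which is ERAD. When unfolded protein builds up, the membrane sensors IRE1 (gene Ern1), ATF6 and PERK raise the transcription of chaperone and ERAD genes, a programme known as the UPR. Osteoblasts secrete large amounts of type I collagen, and their ATF6-like factor OASIS (gene Creb3l1) is known to activate Col1a1.

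ATF6 and XBP1 are known to act through the ER stress response element (ERSE), written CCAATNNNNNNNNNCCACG, and through ERSE-II, in which ATTGG and CCACG stand 1 base apart. Promoter windows (250 bases before to 50 after the gene start, RefSeq, GRCm38.p6) were at hand for 30 members and were searched on both strands. ERSE was found in 9 of the 30 members, compared with 0.1369% of the 27025 genes with such a window. By role, it was found in 6 of 9 chaperones, 1 of 7 isomerases, 2 of 9 degradation genes, and 0 of 3 sensors. ERSE-II was found in 2 of the 30 (Herpud1 and Dnajb11), compared with 0.0444% of all genes. Windows for Hyou1, Manf, Derl1, Atf6, Creb3l1 and Sil1 were not at hand. Stretches of 8 members are shown because these genes share an element and differ in their measured values. Pdia6, Hspa5, Calr and Creld2 had among the lowest p-values between genotypes, Canx and Dnajc3 had smaller differences in the same direction, and Syvn1 and Herpud1 are degradation genes. Herpud1 holds ERSE-II and the other 7 hold ERSE. Gene spans given further below are from GENCODE M21, whose starts can differ from those of RefSeq. The Hspa5 stretch lies before the RefSeq start but inside the GENCODE span of the gene. Capitals mark the fixed letters of the element. ERSE reads as CCAAT and CCACG on the forward strand of the window, or as CGTGG and ATTGG where it lies on the other strand, and ERSE-II in Herpud1 reads as ATTGG and CCACG.
Hspa5, chr2:34772020-34772048, plus strand: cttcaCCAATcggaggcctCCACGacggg
Calr, chr8:84847070-84847098, minus strand: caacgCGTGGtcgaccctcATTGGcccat
Canx, chr11:50325795-50325823, minus strand: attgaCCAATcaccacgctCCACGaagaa
Dnajc3, chr14:118937822-118937850, plus strand: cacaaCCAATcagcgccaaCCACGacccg
Creld2, chr15:88819515-88819543, plus strand: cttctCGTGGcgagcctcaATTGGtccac
Pdia6, chr12:17266486-17266514, plus strand: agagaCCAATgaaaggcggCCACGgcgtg
Syvn1, chr19:6046527-6046555, plus strand: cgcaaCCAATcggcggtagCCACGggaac
Herpud1, chr8:94386372-94386392, plus strand: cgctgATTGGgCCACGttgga
The core CCACG alone was found in 25 of 30 members (83.33%) and in 35.48% of all genes, and it is contained in both longer elements. The UPR element TGACGTGG was found in Txndc5 and Txndc11 alone among the members, compared with 0.7142% of all genes. A match describes the letters only and says nothing about binding.

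Quality limits of at least 500 genes and under 10% mitochondrial UMIs left 46420 cells of 68625 barcodes. A cell was taken as an osteoblast (OB) when it held 10 or more Col1a1 UMIs and, for at least 2 of Runx2, Sp7 and Ibsp, 2 or more UMIs each, which 2671 cells did. Following the study, OBs were split by Col1a1 share of the UMIs of the cell into early (eOBs, under 0.75%, 379 cells), differentiating (dOBs, 0.75 to 3.5%, 1217 cells) and mature (mOBs, over 3.5%, 1075 cells). The members had no part in this selection. UMIs were summed per library and stage, giving 42 to 299 mOBs and 664702 to 4805858 UMIs per library. The names were checked by the summed share of 10 OB markers that the selection had not used. They were Alpl, Spp1, Bglap, Bglap2, Sparc, Col1a2, Ifitm5, Dmp1, Phex and Smpd3. Col1a2 encodes the other chain of type I collagen, so the share was not independent of Col1a1, which selected and staged the cells. The marker share was 3.05 to 5.65% of UMIs in dOBs and 1.48 to 4.64% in eOBs. It was 0.963 to 1.79% in cartilage cells (Col2a1 over 1% of UMIs) and 0.0684 to 0.250% in haematopoietic-like cells. All dOB and mOB libraries lay above all libraries of these other cells, whereas eOBs were above the cartilage cells in 7 of 8 libraries and overlapped them in range. In S5 eOBs the cartilage markers (2.73%) exceeded the OB markers (2.02%), so the eOB name rests on the selection. In mOBs the OB marker share was 15.3% and 15.0% of UMIs in S1 and S2, 8.89% and 9.47% in S3 and S4, 10.1% and 10.5% in S5 and S6, and 6.89% and 9.88% in S7 and S8, so it was lower in Het within each kit version. Libraries S1 and S2 stood apart in cell makeup. Cells with at least 3 of 11 haematopoietic markers made up 56.5% and 46.5% of their cells, compared with 3.21 to 9.75% in the other 6, and within mOBs the 11 haematopoietic markers summed to 0.0671% and 0.0488% of UMIs in S1 and S2 and at most 0.0164% elsewhere. Pairs of libraries shared 2 to 61 cell barcodes. The first principal component of mOB sums (71.8% of the variance) separated the kit versions, and kit version was a term in all genotype fits.

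In mOBs, Pdia6 was the single member that passed the test between genotypes. It encodes a disulphide isomerase that also acts on the sensor IRE1, and it rose in Het by 0.56 on the log2 scale. Calr, Dnajb11, Creld2, Pdia4 and Hspa5 had log2 differences of 0.48 to 0.59 and did not pass. Of the 36 members, 35 were tested, 1 was called higher and 0 lower by edgeR with Benjamini-Hochberg adjustment over all genes, compared with 0.509% of the 9623 genes tested. Unadjusted p was under 0.05 for 12 of the 35 members, 10 of them higher in Het, compared with 11.3% of all genes tested. The median log2 difference of the 35 members was 0.19, with 27 above 0, and that of all genes was -0.002. Both Het libraries lay above both WT libraries in each kit version for 11 of 35 members (Pdia6, Calr, Dnajb11, Creld2, Pdia4, Hspa5, Pdia3, Hsp90b1, Canx, Dnajc3 and Atf6), compared with 4.9% of all genes tested. Levels are given as CPM, UMIs scaled to the library sum after TMM normalisation within each comparison, so that a gene has slightly different values in different comparisons. UMIs count molecules by their 3′ ends and were not divided by transcript length, so levels of different genes are not compared.

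Among the isomerases, Pdia6 (chr12:17266545-17284770, GRCm38) was at 243 and 237 CPM in WT against 362 and 317 in Het with kit version 3, and 176 and 201 in WT against 288 and 289 in Het with kit version 3.1. All 4 Het libraries lay above all 4 WT libraries. The rise had a log2 fold change 0.56, SE 0.11, adjusted p = 0.0404. Fits within kit version 3 alone gave 0.50, and within kit version 3.1 alone 0.62. The call depended on the libraries: it was lost without S1, S2, S3, S4, S5 or S6, with a log2 fold change of 0.51 without S5 and 0.62 without S4 as the extremes and adjusted p of 0.0741 to 0.137, and kept without S7 or S8. Among the processing alternatives, it was lost without the kit term, with a looser OB selection, without OBs holding markers of other cells, with other Col1a1 limits, in narrower Col1a1 bands and with cells thinned to 2000 UMIs (log2 fold changes of 0.39 to 0.55, adjusted p of 0.0561 to 1, edgeR). Pdia4, another isomerase of the ER lumen, was at 69.0 and 46.8 CPM in WT against 71.6 and 113 in Het with kit version 3, and 74.8 and 83.2 in WT against 118 and 101 in Het with kit version 3.1 (log2 fold change 0.58, SE 0.16, adjusted p = 0.150). Het was above WT in each kit version, but S3 (Het) and S1 (WT) were close together. Pdia3 (ERp57), which folds glycoproteins together with calnexin and calreticulin, was at 406 and 337 CPM in WT against 448 and 459.8 in Het with kit version 3, and 341 and 384 in WT against 458 and 557 in Het with kit version 3.1 (log2 fold change 0.39, SE 0.12, adjusted p = 0.211). P4hb, both a disulphide isomerase and a subunit of the enzyme that hydroxylates procollagen prolines, was at 644 and 531 CPM in WT against 669 and 814 in Het with kit version 3, and 493 and 516 in WT against 483 and 571 in Het with kit version 3.1. Its groups overlapped with kit version 3.1 (log2 fold change 0.20, SE 0.13, adjusted p = 0.616). Dnajc10 (ERdj5, which reduces disulphide bonds ahead of degradation) and the thioredoxin-domain proteins Txndc5 and Txndc11 had log2 differences of 0.20, 0.08 and 0.04, and none passed.

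Hspa5 (BiP, chr2:34771970-34777547, GRCm38), the main ER chaperone of the HSP70 family and the usual readout of the UPR, was at 507 and 435 CPM in WT against 586 and 514 in Het with kit version 3, and 413 and 401 in WT against 664 and 693 in Het with kit version 3.1. The gap between genotypes was wide with kit version 3.1 and narrow with kit version 3, in which S4 (Het) and S1 (WT) lay close together. The difference did not pass (log2 fold change 0.48, SE 0.13, adjusted p = 0.159), and kit version 3 alone gave 0.22 where kit version 3.1 alone gave 0.74. The difference between kit versions was not called either (adjusted p = 0.380 by the edgeR interaction test). DESeq2 called Hspa5, Calr and Pdia6, compared with 1.35% of all genes tested. Without a filter on low counts edgeR called these 3 with Creld2, Dnajb11 and Pdia4, compared with 2.91%. The adjusted p for Hspa5 was 0.0148 to 1 over all alternatives run. Calr, a calcium-binding chaperone of glycoproteins, was at 440.4 and 409 CPM in WT against 482 and 569 in Het with kit version 3, and 357 and 349.9 in WT against 562 and 590.1 in Het with kit version 3.1 (log2 fold change 0.51, SE 0.12, adjusted p = 0.0973). Het lay above WT with both kit versions. Hsp90b1 (GRP94), the ER member of the HSP90 family, was at 629.7 and 517 CPM in WT against 682 and 664 in Het with kit version 3, and 425 and 481 in WT against 593 and 603 in Het with kit version 3.1 (log2 fold change 0.32, SE 0.11, adjusted p = 0.303). Its Het libraries were also above WT within each kit version, by a smaller ratio.

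Among the other chaperones and partners, log2 differences had both signs. Dnajb11 (ERdj3), which delivers unfolded chains to BiP, was at 100.3 and 85.0 CPM in WT against 127 and 107 in Het with kit version 3, and 64.9 and 70.9 in WT against 101 and 116 in Het with kit version 3.1 (log2 fold change 0.50, SE 0.12, adjusted p = 0.0973). Creld2, a small secreted UPR target with isomerase activity, was at 27.7 and 36.4 CPM in WT against 43.0 and 39.5 in Het with kit version 3, and 28.6 and 32.4 in WT against 49.4 and 55.9 in Het with kit version 3.1 (log2 fold change 0.59, SE 0.14, adjusted p = 0.0982). Both were higher in Het within each kit version. Manf, a factor that is secreted upon ER stress, had 0.07 in kit version 3 and 0.70 in kit version 3.1 (pooled log2 difference 0.38, adjusted p = 0.305). Its exons overlap those of Rbm15b on the same strand, so its counts are uncertain. Canx, the membrane relative of calreticulin, had 0.27, Hyou1 (an HSP70 relative) 0.42 and Dnajc3 (a BiP co-chaperone) 0.20. On the other side of 0 were Dnajb9 (ERdj4, which represses IRE1) at -0.44 (unadjusted p = 0.0257), Sil1 (a nucleotide exchange factor of BiP) at -0.18, and Sdf2l1 (a partner of the BiP co-chaperones) at -0.08. Sdf2l1 rested on 5.53 to 17.3 CPM and had opposite signs in the kit versions (-0.88 and 0.41). Over the 12 chaperones the median log2 difference was 0.35, with 9 above 0 and 0 called by edgeR (8 at an unadjusted p under 0.05; 2 by DESeq2). The shares of all genes were 0.509% called by edgeR, 11.3% at an unadjusted p under 0.05 and 1.35% called by DESeq2.

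**Figure D1:**
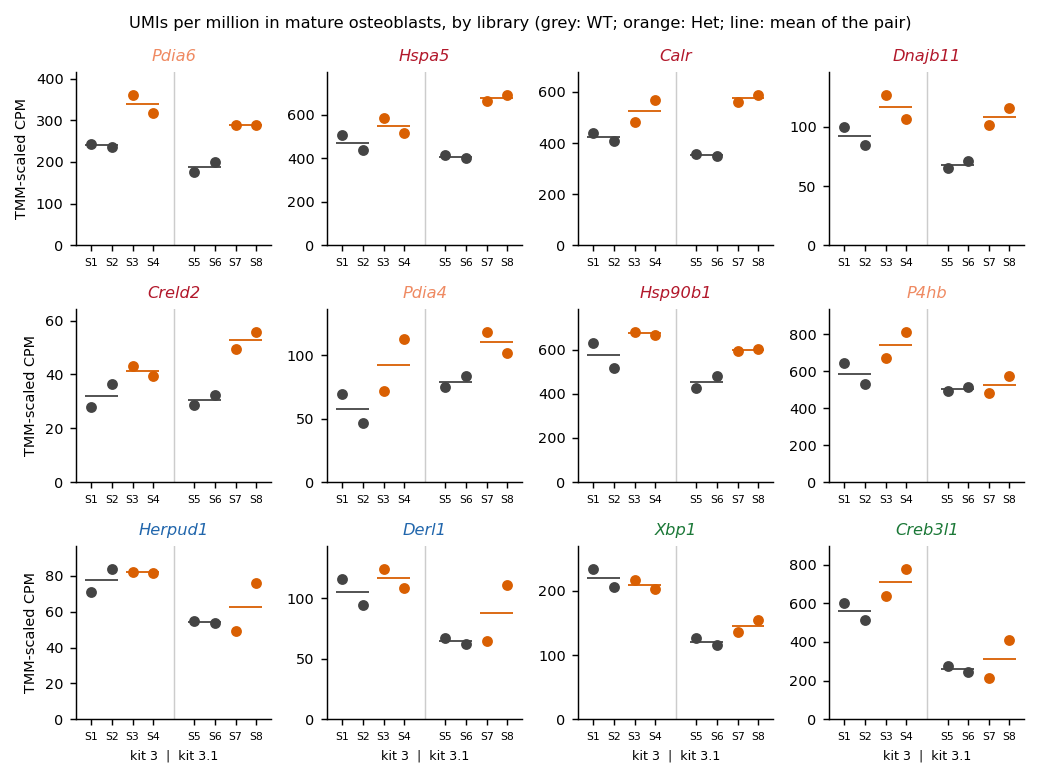
Levels of 12 members in mature osteoblasts (y axes, TMM-scaled CPM, from 0) in libraries S1 to S8 (x axes), with WT in grey, Het in orange and lines at the mean of each pair. Pdia6 and Calr are higher in Het in both kit versions, while the WT and Het points of Herpud1, Derl1, Xbp1 and Creb3l1 overlap in at least 1 kit version.

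Of the 9 degradation genes tested, 0 was called by edgeR (0.509% of all genes) or DESeq2 (1.35%). Their median log2 difference was 0.11, lower than that of the chaperones in a contrast that was not tested, with 7 above 0 and 1 at an unadjusted p under 0.05 (11.3% of all genes). Derl1, a channel component that helps to pull substrates out of the ER, was at 116 and 94.6 CPM in WT against 124 and 109 in Het with kit version 3, and 67.3 and 62.5 in WT against 64.5 and 111 in Het with kit version 3.1 (log2 fold change 0.24, SE 0.15, adjusted p = 0.612). Its high Het value with kit version 3.1 came from S8, the library with the fewest mOBs (42 cells). Os9, a lectin that hands glycoproteins to the degradation complex, was at 102 and 91.1 CPM in WT against 99.5 and 93.9 in Het with kit version 3, and 75.4 and 86.5 in WT against 91.7 and 98.6 in Het with kit version 3.1 (log2 fold change 0.11, SE 0.11, adjusted p = 0.767). Herpud1, a UPR target that organises the degradation complex, was at 71.1 and 84.1 CPM in WT against 82.2 and 81.7 in Het with kit version 3, and 54.7 and 53.7 in WT against 49.4 and 75.9 in Het with kit version 3.1 (log2 fold change 0.11, SE 0.13, adjusted p = 0.840). WT and Het overlapped for Os9 with kit version 3 and for Herpud1 with both. The lowest p belonged to Syvn1, the ubiquitin ligase of the complex, and it was lower in Het (-0.48, SE 0.20, adjusted p = 0.378) at 7.53 to 29.2 CPM. Its partner Sel1l had 0.19, the mannosidase-like Edem1 and Edem2 had 0.21 and 0.05, and Derl2 had 0.19. Edem3, of the same family, had -0.84 in kit version 3 and 0.03 in kit version 3.1. Derl3 was the untested member, with at most 0.789 CPM and no UMI in 6 of 8 libraries.

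None of the 5 sensors and transcription factors was called by edgeR (0.509% of all genes) or DESeq2 (1.35%), and 0 had an unadjusted p under 0.05 with edgeR (11.3% of all genes). Creb3l1 (chr2:91982328-92024502, GRCm38), the OASIS gene, was at 603 and 514 CPM in WT against 638 and 779 in Het with kit version 3, and 274 and 242 in WT against 216 and 408 in Het with kit version 3.1. S7 and S8, both Het, differed from each other by more than the genotypes did (log2 fold change 0.30, SE 0.17, adjusted p = 0.575). Xbp1, the factor activated when IRE1 splices its mRNA, was at 235 and 206 CPM in WT against 216 and 202 in Het with kit version 3, and 127 and 115 in WT against 135 and 155 in Het with kit version 3.1 (log2 fold change 0.08, SE 0.11, adjusted p = 0.857). These counts do not separate the spliced from the unspliced form. Creb3l2, the nearest relative of Creb3l1, was at 61.2 and 61.6 CPM in WT against 51.3 and 54.9 in Het with kit version 3, and 89.0 and 86.2 in WT against 84.1 and 109 in Het with kit version 3.1 (log2 fold change -0.03, SE 0.12, adjusted p = 0.970). Atf6 was at 26.3 and 20.8 CPM in WT against 26.4 and 26.4 in Het with kit version 3, and 42.2 and 41.6 in WT against 43.1 and 48.0 in Het with kit version 3.1 (log2 fold change 0.12, SE 0.13, adjusted p = 0.827), and Ern1 was at 12.1 and 13.9 CPM in WT against 12.1 and 13.0 in Het with kit version 3, and 58.6 and 55.5 in WT against 49.8 and 44.0 in Het with kit version 3.1 (log2 fold change -0.20, SE 0.13, adjusted p = 0.642). For these 3 genes the kit versions differed by more than the genotypes did. Of the other 2 members, Wfs1 (an ER membrane protein mutated in Wolfram syndrome) was at 14.9, 6.94, 12.8, 11.1, 10.3, 8.62, 11.3 and 10.7 CPM in S1 to S8 and Bet1 (a membrane fusion protein of ER-to-Golgi transport) was at 104, 113, 97.3, 88.4, 69.3, 68.0, 45.2 and 81.3 CPM. Neither was called (adjusted p = 0.882 and 0.622).

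**Figure D2:**
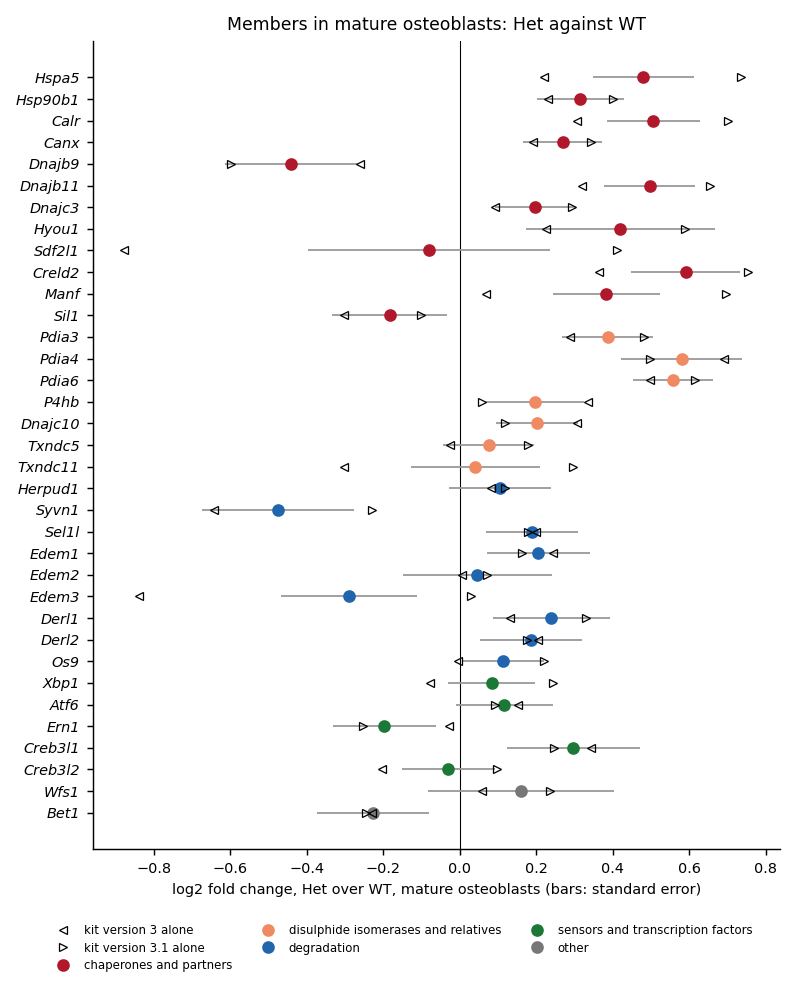
Log2 fold change of Het over WT (x axis) for the 35 members tested in mature osteoblasts (y axis), with standard errors as bars, colours for the roles, and open triangles for the fit within each kit version. Chaperones and isomerases lie mostly right of 0 (medians 0.35 and 0.20), degradation genes and sensors nearer to it (medians 0.11 and 0.08).

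The Col1a1 share of mOBs and the markers of other cells were set beside these differences. Col1a1 took 9.74% ± 2.07 of UMIs in WT and 7.28% ± 1.25 in Het (SD, n = 4 each). By library it was 12.3 and 10.6 in WT against 6.69 and 8.22 in Het with kit version 3, and 7.84 and 8.27 in WT against 5.80 and 8.41 in Het with kit version 3.1 (% of UMIs). Both Het libraries were below WT with kit version 3. With kit version 3.1 S7 was the lowest and S8, also Het, the highest, and the chaperone shares were 0.536% and 0.513% in them and 0.360% and 0.376% in S5 and S6 (WT). The 6 smooth muscle or pericyte markers summed to 0.00228 and 0.00268 in WT against 0.0119 and 0.00585 in Het with kit version 3, and 0.0143 and 0.0110 in WT against 0.0231 and 0.0354 in Het with kit version 3.1 (% of UMIs), so both Het libraries lay above WT in each kit version. Cartilage markers took 0.00384 to 0.106% of UMIs in WT and 0.0243 to 0.297% in Het, and erythroid markers 0.00801 to 1.07% and 0.00241 to 0.224%. The 18 chaperones and isomerases counted here (all of both roles except Txndc11) took a smaller share of UMIs in OBs of over 6% Col1a1 than in those of 0.75 to 2% in each of 8 libraries. In mOBs with 3.5 to 6% Col1a1 their summed share was 0.464 and 0.438 in WT against 0.497 and 0.578 in Het with kit version 3, and 0.405 and 0.435 in WT against 0.546 and 0.645 in Het with kit version 3.1 (% of UMIs). In mOBs with over 6% Col1a1 it was 0.328 and 0.272 in WT against 0.300 and 0.312 in Het with kit version 3, and 0.311 and 0.311 in WT against 0.516 and 0.389 in Het with kit version 3.1. Thus at over 6% Col1a1 the kit version 3 libraries overlapped (0.300% in WT and 0.306% in Het, mean of 2), while both kit version 3.1 Het libraries remained above WT (0.311% and 0.452%). This upper band did not match the genotypes for Col1a1. Its cells had mean Col1a1 shares of 12.8 and 11.9% in WT against 8.56 and 10.4% in Het with kit version 3. With kit version 3.1 they had 12.1 and 12.8% in WT against 9.69 and 14.2% in Het. Some sums rested on few cells, with 10 (S1), 15 (S2) and 20 (S8) in the lower band and 22 (S8) in the upper. The bands were fitted alone after the data had been seen, and edgeR called 0 members in either, compared with 0.172% of 8153 genes in the lower band and 0.786% of 8520 in the upper. At an unadjusted p under 0.05 there were 13 members in the lower band (8.48% of all genes) and 6 in the upper (10.4%). In the lower band the log2 differences were 0.46 for Pdia6, 0.58 for Hspa5, 0.62 for Calr and 0.72 for Manf (adjusted p = 0.374, 0.249, 0.218 and 0.137). In the upper band they were 0.44, 0.22, 0.22 and 0.04 (adjusted p = 0.320, 0.729, 0.732 and 0.976). Pdia6 was thus similar in both bands, and the other 3 had smaller differences above 6%, a contrast that was not tested. These genes do not stand for all members. In the lower and upper band, Pdia4 had 0.52 and 0.57, Pdia3 0.32 and 0.35, and Dnajb11 0.60 and 0.48. Creld2 had 0.81 and 0.28, and Hsp90b1 0.45 and 0.14. The part of the Col1a1 share, of the OB markers and of the other marker lists in the differences over all mOBs was not tested.

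**Figure D3:**
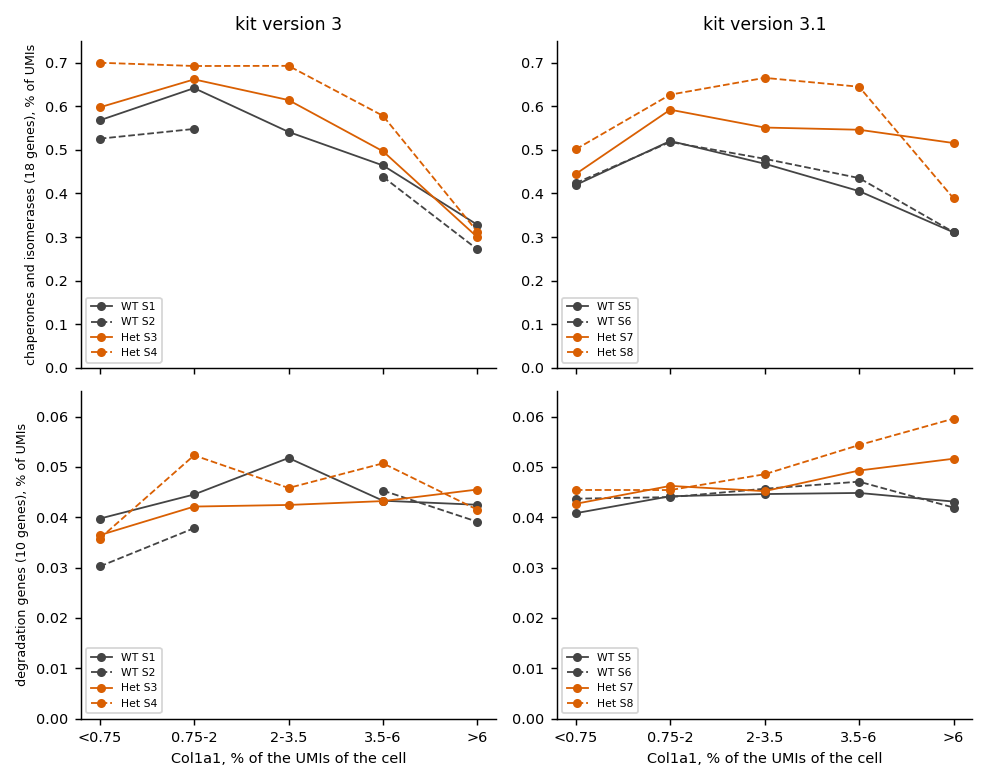
Summed share of UMIs (y axes, %, from 0) of 18 chaperones and isomerases (top) and 10 degradation genes (bottom) in osteoblasts grouped by Col1a1 share (x axes, % of the UMIs of the cell), 1 line per library, kit version 3 left and 3.1 right; the missing S2 point had too few cells. Chaperone shares are lower at over 6% Col1a1 than at 0.75 to 2% in all 8 libraries, the lowest being 0.272% in S2 and the highest 0.516% in S7. Degradation shares range from 0.0302% (S2, under 0.75% Col1a1) to 0.0596% (S8, over 6% Col1a1).

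Before the mature stage, no member was called between genotypes. In dOBs, 0 of 35 tested members was called by edgeR, compared with 0.0101% of 9857 genes, and 0 by DESeq2, compared with 0.0406%. At an unadjusted p under 0.05 with edgeR there were 7 members, compared with 7.51% of genes. The median log2 difference of the members was 0.18, with 29 of 35 above 0. The lowest p belonged to Creb3l1 (log2 fold change 0.49, SE 0.16, adjusted p = 0.582), followed by Xbp1 (0.31) and Hsp90b1 (0.26). In dOBs Creb3l1 was at 178 and 264 CPM in WT against 362 and 348 in Het with kit version 3, and 151 and 113 in WT against 148 and 175 in Het with kit version 3.1. Hspa5 and Pdia6 had 0.24 and 0.21, again larger with kit version 3.1 (0.41 and 0.39) than with kit version 3 (0.05 and 0.02). In eOBs, of which libraries held 22 to 95, 0 of 34 tested members was called by edgeR, compared with 0% of 8118 genes. DESeq2 called 0 members, compared with 0.037% of genes. At an unadjusted p under 0.05 with edgeR there were 0 members, compared with 3.81% of genes, and the median log2 difference of the members was 0.04. The genotype effect was not shown to differ between mOBs and dOBs for any of 35 members. edgeR called 0 of them, compared with 0% of 9669 genes, and DESeq2 0, compared with 0.031%. At an unadjusted p under 0.05 with edgeR there were 4 members, compared with 4.79% of genes. For Pdia6 the difference of effects was 0.33 with SE 0.20, and for Syvn1, the lowest p, -0.75 with SE 0.28.

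Outside the OBs, 30 of 36 members had a positive log2 difference between Het and WT, in cells whose makeup differed, and none passed the test. In all other cells 0 of 36 members was called by edgeR (15 at an unadjusted p under 0.05; 4 by DESeq2: Creb3l2, Creld2, Dnajc10 and Pdia6). Of 16502 genes, edgeR called 0%, DESeq2 11.8%, and 25.7% had an unadjusted p under 0.05 with edgeR. Pdia6 was at 249 and 225 CPM in WT against 465 and 388 in Het with kit version 3, and 375 and 402 in WT against 442 and 484 in Het with kit version 3.1 in these cells. The low libraries were S1 and S2, those rich in cells with haematopoietic markers, and the log2 difference was 0.85 in kit version 3 against 0.25 in kit version 3.1. In such mixed sums, fewer cells of a type and less RNA per cell cannot be told apart. In cartilage cells, 0 of 36 members was called by edgeR, compared with 0.0913% of 14232 genes, and 0 by DESeq2, compared with 0.365%. At an unadjusted p under 0.05 with edgeR there were 2 members, compared with 7.03% of genes. Over the 36 members the median log2 difference was 0.03, Hspa5 had 0.07 and Pdia6 0.08. In haematopoietic-like cells (at least 3 of the 11 haematopoietic markers, no OB or cartilage cell, and under 3 markers each of endothelium, smooth muscle or pericytes, and fibroblasts), 0 of 35 was called (15 at an unadjusted p under 0.05; 3 by DESeq2: Pdia3, Pdia6 and Sel1l), with a median of 0.23. Of 11791 genes, edgeR called 0.017%, DESeq2 3.96%, and 17.8% had an unadjusted p under 0.05 with edgeR. Pdia6 was at 194 and 215 CPM in WT against 237 and 256 in Het with kit version 3, and 151 and 136 in WT against 185 and 187 in Het with kit version 3.1 there (log2 fold change 0.32, SE 0.09, adjusted p = 0.149). Pdia6 and Hspa5 thus had a positive log2 difference in these cells too (0.32 and 0.26), and whether it differs from that in mOBs was not tested.

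Members differed between OBs and all other cells of the same libraries, most of all Creb3l1. Of 36 members tested, 17 were called higher in OBs, compared with 14.8% of 14291 genes, and 2 lower, compared with 20.9%. Creb3l1 was at 292 and 408 CPM in WT against 516 and 691 in Het with kit version 3, and 194 and 171 in WT against 150.5 and 214 in Het with kit version 3.1 in OBs. In the other cells it was at 28.8 and 14.9 CPM in WT against 76.2 and 70.5 in Het with kit version 3, and 39.0 and 27.6 in WT against 20.7 and 22.5 in Het with kit version 3.1. The lowest OB library lay above the highest library of the other cells (log2 fold change 3.13, SE 0.25, adjusted p = 1.37e-05). Ern1 (0.97), Xbp1 (0.75) and Atf6 (0.22) were higher as well, whereas Creb3l2 did not pass (-0.72, adjusted p = 0.0529). Of the isomerases, Txndc5 (0.82), P4hb (0.67), Txndc11 (0.36), Pdia3 (0.32) and Dnajc10 (0.31) were higher. Of the chaperones, Hyou1 (0.72), Manf (0.72), Hsp90b1 (0.49), Dnajb11 (0.47) and Creld2 (0.40) were higher and Dnajb9 was lower (-0.42). Hspa5 and Calr, by contrast, were close to the other cells (0.17 and 0.04, adjusted p = 0.344 and 0.819). Derl3, which is known from plasma cells, was lower (-1.47) and had at most 1.81 CPM in either class. The degradation genes Syvn1 (0.33) and Edem3 (0.43), and Bet1 (0.62), completed the list of 17.

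These differences depended on the cells used for comparison. P4hb was 1.24 higher (log2) in OBs with kit version 3, where S1 and S2 hold many cells with haematopoietic markers, and 0.15 with kit version 3.1. Its call was lost without S1 (0.58), S3 (0.65) or S4 (0.59). Other calls were also lost on leaving out 1 library. That held for Atf6 without S1, S3, S4, S5, S6 or S8 (lowest 0.20 without S3), for Edem3 without any library but S8 (lowest 0.32 without S2), and for Txndc11 without S1, S2, S3, S4 or S5 (lowest 0.29 without S1). It held as well for Syvn1 without S1, S3, S4 or S8 (lowest 0.29 without S8), for Pdia3 without S1 (0.27), and for Dnajb9 without S3, S6, S7 or S8 (-0.35 without S8). Derl3 did not pass the low-count filter without S5 or with mitochondrial UMIs under 5%, so it had no test there. In every alternative run that kept all other cells as the comparison, Bet1, Creb3l1, Dnajb11, Ern1, Hsp90b1, Hyou1, Manf, Txndc5 and Xbp1 were called higher, and the other 8 of the 17 were not called without a low-count filter or with thinning. With cells thinned to 2000 UMIs, 11 members were called, compared with 25.9% of 11970 genes, 9 of them higher, compared with 10.1%. Against cartilage cells alone, an alternative chosen after the data had been seen, 10 members were called higher in OBs, compared with 29.2% of 12192 genes, and 8 lower, compared with 28.6%. Creb3l1 (3.75), Ern1 (1.08), Hyou1 (0.92) and Xbp1 (0.82) were higher, and Creb3l2 (-1.92), Pdia6 (-0.77), Herpud1 (-0.64), Dnajb9 (-0.59) and Calr (-0.36) were lower in OBs than in cartilage cells. Against haematopoietic-like cells alone, 21 were called higher, compared with 32.9% of 11773 genes, and 5 lower, compared with 35.8%. The members called higher in OBs included Creb3l1 (5.11), Txndc5 (2.05), Wfs1 (1.67) and P4hb (1.58). Those called lower were Sdf2l1 (-1.85), Edem1 (-1.30), Atf6 (-1.09), Edem2 (-0.60) and Dnajb9 (-0.35), so the direction of Atf6 turned, and Ern1 did not pass (-0.01, adjusted p = 0.969). Summed over all 36 members, OBs gave 0.606% ± 0.0685 of UMIs, cartilage cells 0.623% ± 0.0284, and haematopoietic-like cells 0.439% ± 0.0881 (SD, n = 8 libraries). The OB share was above that of haematopoietic-like cells in 8 of 8 libraries and above that of cartilage cells in 3 of 8.

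Within the OBs, calls between stages fell unevenly over the roles, a contrast that was not itself tested. From eOBs to mOBs of the same libraries, 12 of 35 members were called higher, compared with 14.9% of 9217 genes, and 2 lower, compared with 13%. The 12 were 5 of 9 degradation genes, 3 of 5 sensors, 3 of 7 isomerases and Bet1, with 0 of 12 chaperones. In alternatives, the chaperone Dnajb11 was called higher with a looser OB selection and with other Col1a1 limits, and Manf without a low-count filter. Creb3l1 was at 55.2, 72.4, 62.7, 49.9, 42.9, 46.9, 29.2 and 60.5 CPM in eOBs of S1 to S8 and at 697, 591, 742, 905, 318, 279.9, 252 and 475 CPM in mOBs (log2 fold change 3.20, SE 0.16, adjusted p = 6.22e-08). Xbp1 was at 114, 118, 106, 141, 68.3, 73.4, 61.9 and 45.4 CPM in eOBs and at 271, 236, 252, 235, 147, 134, 158 and 180.1 CPM in mOBs (log2 fold change 1.18, SE 0.12, adjusted p = 1.57e-05). P4hb was at 347, 293, 361, 345, 369, 322, 271 and 294 CPM in eOBs and at 743, 609.7, 778, 945, 571, 598, 564 and 666 CPM in mOBs (log2 fold change 1.06, SE 0.10, adjusted p = 6.93e-06). For all 3 genes each library was higher in its mOBs than in its eOBs, and for Creb3l1 and P4hb the stages did not overlap. With cells thinned to 2000 UMIs, 6 of the 18 members then tested were called, compared with 23.7% of 2357 genes, 4 of them higher, compared with 12.7%. The 4 were Creb3l1, Xbp1, P4hb and Txndc5, and Calr and Creb3l2 were lower. No degradation gene was called there, nor were Ern1, Bet1 and Txndc11, and members outside the 18 had no test. With all UMIs kept, the degradation genes Edem1 (1.22), Derl1 (0.94), Edem3 (0.93), Herpud1 (0.79) and Os9 (0.57) were higher in mOBs. Ern1 (0.92), Bet1 (0.93), Txndc5 (0.72) and Txndc11 (0.46) were also higher. The call of Txndc11 was lost without S1 (0.35), S2 (0.42), S4 (0.47), S7 (0.41) or S8 (0.39), and of the processing alternatives only a looser OB selection and the fit without a low-count filter kept it. Ern1 and Edem3 had no UMI in the 23 eOBs of S4. Markers of other cells moved with the stage. Cartilage markers took 0.0137 to 2.73% of UMIs in eOBs and 0.00384 to 0.297% in mOBs (higher in eOBs in 7 of 8 libraries), smooth muscle or pericyte markers 0.0240 to 0.194% and 0.00228 to 0.0354% (8 of 8), and endothelial markers 0.00249 to 0.145% and 0.000301 to 0.00300% (8 of 8). Without OBs holding markers of other cells (S2 then dropped), 11 of the 12 members, all but Txndc11, were called higher, compared with 12.8% of 7596 genes. Creb3l2 was called lower there in place of Calr and Sdf2l1, and 23.4% of genes were called in either direction. Stage was set by Col1a1, so the comparison describes cells that differ in Col1a1 by definition.

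Of the 12 chaperones, Calr and Sdf2l1 were called, both lower in mOBs. Calr was at 899, 842, 1082, 1112, 559, 532, 523 and 557 CPM in eOBs of S1 to S8 and 508, 470.2, 561, 661, 414, 405, 657 and 688 CPM in mOBs. It was lower in mOBs (log2 fold change -0.45, SE 0.16, adjusted p = 0.0491), with -0.85 within kit version 3 and -0.04 within kit version 3.1, and the call was lost on leaving out any 1 of S1 to S6 (-0.38 without S3 and -0.46 without S6 as the extremes). It was also lost with a stricter OB selection (-0.36), with mitochondrial UMIs under 5% (-0.47), without OBs holding markers of other cells (-0.47) and with Col1a1 shares computed without collagen UMIs (-0.43). Sdf2l1 was lower as well (log2 fold change -1.05, SE 0.33, adjusted p = 0.0310), again mainly in kit version 3 (-2.02 against -0.32), at 6.41 to 20.2 CPM in mOBs. Its call was lost without S1 (-0.96), S2 (-0.98), S3 (-0.89), S4 (-0.92) or S7 (-1.01), with a stricter OB selection (-0.84) and without OBs holding markers of other cells (-0.91). With other Col1a1 limits or with thinning Sdf2l1 did not pass the low-count filter and had no test. Hspa5 was at 898, 1017, 827, 1330.1, 516, 495, 575 and 644 CPM in eOBs and 586, 500.1, 682, 596, 479, 465, 776 and 808 CPM in mOBs. It was lower in mOBs in S1 to S6 and higher in S7 and S8, both Het, and did not pass (log2 fold change -0.31, SE 0.17, adjusted p = 0.208). Hsp90b1, with 0.00 (SE 0.12), and Dnajc3, with 0.04 (SE 0.12), had differences near 0. Over the 12 chaperones the median was 0.07, compared with 0.57 over the 9 degradation genes and -0.02 over all genes. The chaperone median was -0.24 within kit version 3 and 0.25 within kit version 3.1, and that of the degradation genes 0.79 and 0.57.

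**Figure D4:**
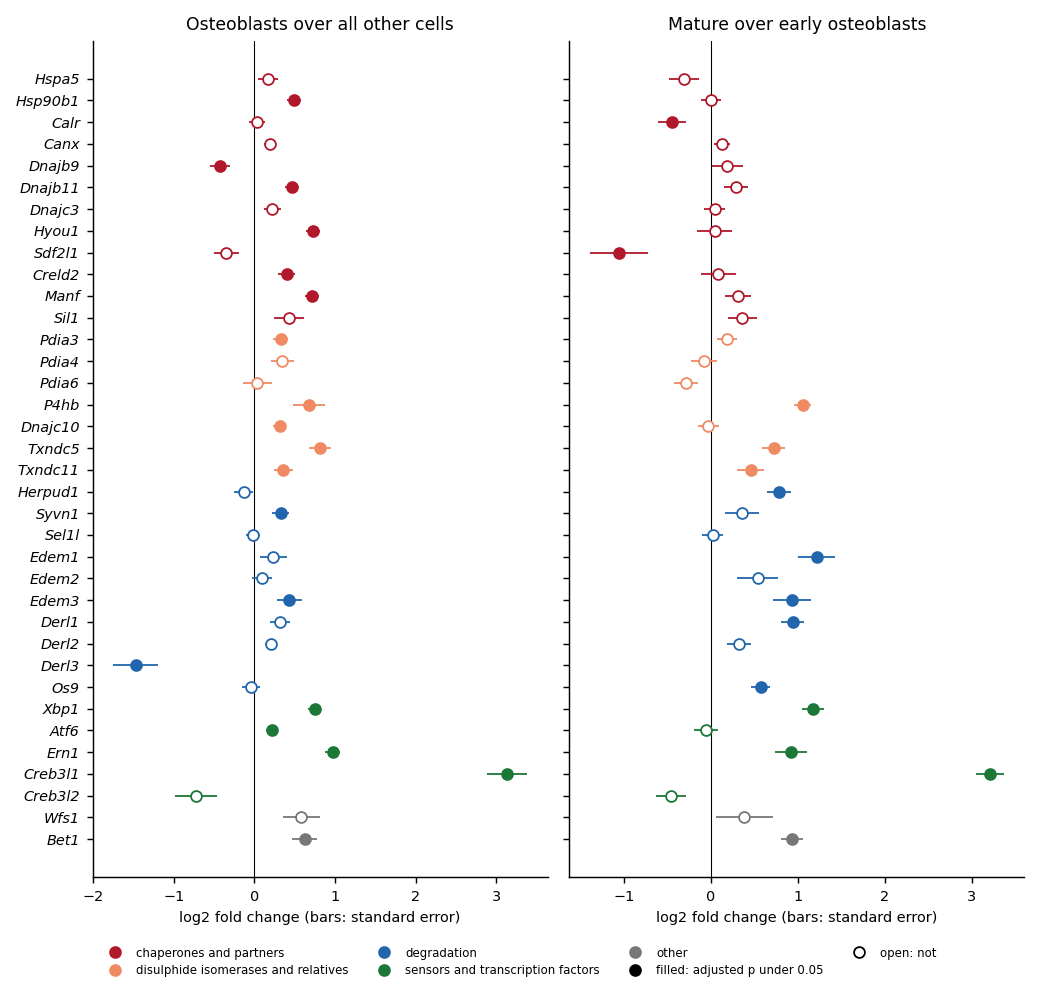
Log2 fold changes (x axes) of the members (y axis) in osteoblasts over all other cells (left, 36 members) and in mature over early osteoblasts (right, 35 members, without Derl3), with standard errors as bars, colours for roles, and filled points for an adjusted p under 0.05. Creb3l1 stands far right in both (3.13 and 3.20), and on the right 5 of 9 degradation genes but 0 of 12 chaperones are filled above 0.

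As a summary of chaperones against degradation, the UMIs of the 18 chaperones and isomerases were divided by those of the 10 degradation genes. In mOBs the log2 of this ratio was 2.998 and 2.88 in WT against 3.14 and 3.19 in Het with kit version 3, and 3.03 and 3.08 in WT against 3.42 and 3.17 in Het with kit version 3.1. Het was above WT within each kit version, with means of 2.997 ± 0.08 in WT and 3.23 ± 0.13 in Het (SD, n = 4), a difference of 0.23. The difference was 0.22 with kit version 3 and 0.24 with kit version 3.1, and is given as a description with no test. It was 0.17 without S7, 0.10 with other Col1a1 limits (0.5% and 5%) and 0.36 with cells thinned to 2000 UMIs. By Col1a1 band it was 0.25 at 3.5 to 6% and 0.04 above 6%, where it was -0.06 with kit version 3 and 0.14 with kit version 3.1. Both sums were higher in Het mOBs: the chaperones took 0.343% ± 0.0353 of UMIs in WT and 0.462% ± 0.0730 in Het, and the degradation genes 0.0428% ± 0.00207 and 0.0491% ± 0.00589. In dOBs the difference in the log2 ratio between genotypes was 0.17, in eOBs 0.14 and in cartilage cells -0.04. Within a kit version it was 0.18 in eOBs with kit version 3 and 0.10 with kit version 3.1, where the WT libraries had SDs of 0.20 and 0.06 (n = 2 each). In other cells it was 0.40 in kit version 3 and 0.02 in kit version 3.1. By stage, the ratio was lower in mOBs than in eOBs in 7 of 8 libraries (means 3.11 and 3.72), mainly with kit version 3. In S1 to S4 it was 3.84, 4.12, 4.04 and 4.29 in eOBs against 2.998, 2.88, 3.14 and 3.19 in mOBs. In S5 to S8 the stages lay closer, at 3.36, 3.28, 3.38 and 3.46 in eOBs against 3.03, 3.08, 3.42 and 3.17 in mOBs. The chaperone share was 0.402% ± 0.0830 in mOBs and 0.522% ± 0.0970 in eOBs (higher in mOBs in 2 of 8 libraries), and the degradation share 0.0459% ± 0.00530 and 0.0393% ± 0.00498 (higher in mOBs in 8 of 8).

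The other genes of the pathway (86 listed, such as translocon, glycosylation and prolyl isomerase genes) were read from the same fits. In mOBs 0 of 83 tested were called between genotypes by edgeR, compared with 0.509% of all genes tested. The 83 had a median log2 difference of 0.03, and 8 had an unadjusted p under 0.05 (11.3% of all genes tested). Among these 8 were Ero1l, the oxidase that recharges the isomerases (0.52, adjusted p = 0.261), Uggt1, which senses unfolded glycoproteins (0.43, adjusted p = 0.286), and the ubiquitin conjugase Ube2j1 (0.56, adjusted p = 0.270). The PERK gene Eif2ak3 had -0.05, Atf4 0.03 and Ddit3, encoding CHOP, 0.35 with SE 0.23. The collagen chaperone Serpinh1 had 0.11. In dOBs 0 of 82 were called (0.0101% of all genes), and 12 had an unadjusted p under 0.05 (7.51% of all genes). In eOBs 0 of 82 were called (0% of all genes), with 1 at that unadjusted p (3.81%). From eOBs to mOBs 53 of 83 were called higher, compared with 14.9% of all genes tested, and 2 lower, compared with 13%, with a median log2 difference of 0.56. They included Fkbp11 (2.83), Serpinh1 (1.54), the translocon subunit Sec61b (1.37) and Creb3l3, a relative of Creb3l1 best known from liver (5.67). These examples were picked after their values had been seen. Against all other cells, 32 of 84 were called higher in OBs, compared with 14.8% of all genes tested, and 4 lower, compared with 20.9%, the latter including Ddit3 (-0.97) and Ppp1r15a (-1.77), which acts in the recovery from translational arrest.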

How the data were processed

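Single-cell UMI counts of 8 libraries of 3′ RNA were analysed. Per the labels and the matrix headers, the authors made these counts with Cell Ranger (version 5.0.0 for kit version 3, 6.0.1 for kit version 3.1) on mm10, and the deposited matrices hold raw whole-number counts. Total UMIs per library were 30480239 to 85162035 over all barcodes. Cells were selected and staged as stated with the results, and UMIs were summed per library and class. Doublets were not called, and alternatives left out cells with markers of other cells or with the most UMIs. edgeR (4.0.16, R 4.3.3) quasi-likelihood tests used filterByExpr, TMM scaling and a kit term, or a library term between classes of the same libraries, with Benjamini-Hochberg adjustment over all genes and calls at an adjusted p under 0.05. DESeq2 (1.42.0) was an alternative. Fits were tested on simulated data. Values of each library were printed for members called between genotypes, the 6 lowest p in mOBs, the 3 most abundant of each role, and all sensors. The members, lists and tests were chosen with earlier results of these data known. The p-values measure the spread between pooled libraries. All 36 symbols matched GENCODE M21 and RefSeq (GRCm38), the source of positions and promoters.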

Additional observations from a re-analysis of the deposited data

Results flagged for a closer look

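Chance flags about 1 in 20 groups, and 44 groups of 4 libraries of levels and ratios were examined for a library far from the rest. In mOBs, Pdia3 was at 557 CPM in S8, far above the other 3 Het libraries, and S8 held the fewest mOBs (42). The log2 ratio of chaperone to degradation UMIs in mOBs was 3.42 in S7, far above the other 3 Het libraries.

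In the cells other than OBs, the difference between Het and WT itself differed between the kit versions by the edgeR interaction test (adjusted p under 0.05) for 8 of 36 members, compared with 24.7% of the 16502 genes tested. On the log2 scale, kit version 3.1 minus kit version 3, it was -2.37 for Creb3l1, -1.10 for Creb3l2, -0.82 for Pdia4, -0.56 for Dnajc3, -0.77 for P4hb, -1.15 for Txndc5, -0.84 for Sil1 and 1.11 for Sdf2l1. Cells with at least 3 of 11 haematopoietic markers made up 56.5% and 46.5% of S1 and S2, the WT libraries of kit version 3, and 3.21 to 9.75% of the others. The part of this makeup in the 8 differences was not tested.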

How the results depend on the processing

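In mOBs the number of members called between genotypes was 1 (0.509% of all genes), and 3 with DESeq2 (Calr, Hspa5, Pdia6; 1.35% of all genes) and 6 without a low-count filter (the same 3 with Creld2, Dnajb11 and Pdia4; 2.91%). It was 0 without the kit term (0% of all genes), with the replicate block (0.26%), with a looser OB selection (0.522%), without OBs holding markers of other cells (0.0904%; S2 then dropped), with other Col1a1 limits (0.938%), in either band of mOBs alone (0.172% and 0.786%), and with cells thinned to 2000 UMIs (0.641%). It ranged from 0 to 1 when single libraries were left out (0.109 to 1.73% of all genes). DESeq2 called 4 members in other cells (11.8% of all genes) and 3 in haematopoietic-like cells (3.96%), and 2 were called there without a low-count filter (5.55%). With thinning, 11 members were called in OBs against other cells (25.9% of all genes; 19 members without it) and 6 in mOBs against eOBs (23.7%; 14 without it). The log2 ratio difference in mOBs was 0.10 with other Col1a1 limits and 0.36 with thinning. Between genotypes in mOBs, the sign of Os9 reversed with thinning (-0.26), both values being larger than their SE. Smaller sign changes of uncalled members included Bet1 (0.027) and Sdf2l1 (0.28) at 3.5 to 6% Col1a1 and Txndc5 (-0.12), Txndc11 (-0.25) and Xbp1 (-0.06) above 6%. For OBs against other cells they reversed with cartilage cells alone for Hspa5 (-0.18), Pdia3 (-0.077), Pdia4 (-0.39), P4hb (-0.21), Dnajc10 (-0.049), Edem3 (-0.0064), Sil1 (-0.12), Wfs1 (-0.091), Dnajc3 (-0.078), Sdf2l1 (0.11), Calr (-0.36) and Pdia6 (-0.77), the last 2 from values within their SE, and with haematopoietic-like cells alone for Edem1 (-1.30), Derl2 (-0.12), Atf6 (-1.09), Ern1 (-0.011), Creb3l2 (1.43), Edem2 (-0.60), Os9 (0.0066), Herpud1 (0.050) and Sel1l (0.074). For mOBs against eOBs they reversed for Canx (-0.17, thinning) and Dnajb9 (-0.19, looser selection). The causes were not tested. With the replicate block, the count of members called was 0 in each genotype comparison within a cell class (0 to 0.26% of all genes), so the Pdia6 call was lost (adjusted p = 0.115). Within a kit version the replicate numbers did not mark paired libraries (correlations of deviations -0.05 and -0.03), so the samples share only a number. Stages with few cells (22 to 95 eOBs per library) limit what could be detected. The 2 mOB bands and the 2 narrower comparison classes were chosen after seeing the data.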
